A study of Mus musculus with 34 samples.

Results

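The CXC chemokines described here are 10 genes chosen by their symbols, namely Cxcl1, Cxcl2, Cxcl3, Cxcl5, Cxcl9, Cxcl10, Cxcl12, Cxcl13, Cxcl14 and Cxcl16. All 10 were present among the 14552 genes of the table of uninjected hearts and among the 17406 genes of the table of injected hearts. The study used Swiss Webster (CFW) mice. Infarcted hearts had the left anterior descending coronary artery permanently tied off, which causes a myocardial infarction (MI). RNA for the table of uninjected hearts came from the ischemic area of the left ventricle (LV), or from the equivalent area of control hearts. The study's text does not give the area sampled for the table of injected hearts. Names of its 24 h libraries carry the letters Br, which are not explained. Whether the area sampled differed between times is therefore not known. The uninjected hearts were 3 controls, 3 hearts 4 h post-MI and 4 hearts 24 h post-MI, and the controls are sham operated in the study's text but carry a label of no operation. The table of injected hearts held 2 sham-operated hearts without injection, collected at 4 h, and hearts given chemically modified mRNA (modRNA) in the infarct border right after ligation. The injected modRNA was Luc, which encodes firefly luciferase, in 4 hearts at 4 h, 3 at 24 h and 4 at 48 h, or AC, which the labels do not spell out, in 4 hearts at 4 h, 3 at 24 h and 4 at 48 h. Thus the sham hearts of that table differ from every other group of it in both the ligation and the injection. They differ from its 24 h and 48 h groups also in the time of collection. The ages of the mice are not given in the sources used here, the labels do not say whether a library pools animals, and p-values measure only the spread between these libraries.

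CXC chemokines are small secreted proteins that guide white blood cells along gradients through receptors of the G protein-coupled type. Cxcl1, Cxcl2, Cxcl3 and Cxcl5 bind Cxcr2 and draw neutrophils, the first white blood cells to enter an infarct. Cxcl9 and Cxcl10 are induced by interferons and bind Cxcr3 on T and NK cells. Cxcl12 is made by stromal and endothelial cells and binds Cxcr4 and the scavenging receptor Ackr3. Cxcl13 draws B cells through Cxcr5, Cxcl14 is an abundant chemokine of epithelial and stromal tissue, and Cxcl16 is a membrane-bound chemokine that binds Cxcr6 and can be shed by proteases. Induction of several of these genes in inflamed tissue runs through the transcription factor NF-kB, and that of Cxcl9 and Cxcl10 also through interferon-activated factors.

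In the mouse genome (build GRCm38.p6, the same primary assembly as the mm10 used by the authors), 7 of the 10 genes lie on chromosome 5. Cxcl5 (chr5:90759298-90761625), Cxcl3 (chr5:90786101-90788093), Cxcl1 (chr5:90891245-90893121) and Cxcl2 (chr5:90903899-90905938) lie in this order on the plus strand, with other genes between them. Cxcl9 (chr5:92321331-92328079) and Cxcl10 (chr5:92346638-92348889) lie close together on the minus strand, and Cxcl13 (chr5:95956939-95961068) is on the plus strand. Cxcl12 is at chr6:117168535-117181368 on the plus strand, Cxcl14 at chr13:56288643-56296811 and Cxcl16 at chr11:70454389-70459984, both on the minus strand. The reads were 50 bases long, and the paralogs Cxcl2 and Cxcl3 shared 61 stretches of 50 bases, 3.28% of those of Cxcl2 transcripts and 6.31% of those of Cxcl3 transcripts in GENCODE M21. Cxcl16 shared 20.02% of its stretches with the gene Zmynd15 and Cxcl10 shared 5.54% with Art3, each a gene on the opposite strand that overlaps it, and the sources used here do not say whether counting used strand. Values of Cxcl2, Cxcl3, Cxcl10 and Cxcl16 carry an uncertainty from this sharing, and its size was not measured.

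Promoters were read for the members because several of them moved together, and short windows are shown for every member with a motif match. The motif GGGNNTTNCC, a form of the NF-kB site in which N is any base, and the motif GAAANNGAAA, a form of the interferon-stimulated response element, were searched on both strands from 250 bases before to 50 bases after the RefSeq start of each gene. The table of promoters held 8 of the 10 members, all but Cxcl5 and Cxcl16. The first motif was in 5 of these 8 promoters and in 4.71% of all 27025 promoters, and the second in 2 of the 8 and in 3.49% of all. In the windows below, written 5′ to 3′ on the strand of the gene, capitals mark the motif matches.
Cxcl1, chr5:90891155-90891184, plus strand: gGGAAACACCCtgtactccGGGAATTTCCc
Cxcl2, chr5:90903801-90903830, plus strand: aGGGAATTTCCctggtccccGGGCTTTTCC
Cxcl3, chr5:90786018-90786047, plus strand: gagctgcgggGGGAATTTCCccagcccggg
Cxcl9, chr5:92328190-92328219, minus strand: tctgagagtaGGGTTTTCCCcaggacgatc
Cxcl10, first motif, chr5:92348973-92349002, minus strand: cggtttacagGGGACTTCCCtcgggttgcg
Cxcl10, second motif, chr5:92349083-92349112, minus strand: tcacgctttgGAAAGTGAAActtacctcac
Cxcl14, second motif, chr13:56296704-56296733, minus strand: gtgtccacagGAAACAGAAAagcagcaccc
Cxcl1 and Cxcl2 each held 2 matches of the first motif, and in Cxcl1 the match farther from the start lay on the opposite strand. The matches of Cxcl1, Cxcl2, Cxcl3 and Cxcl10 began between 71 and 103 bases before the start, and that of Cxcl9 began 130 bases before it. Cxcl10 was the member that held both motifs. The promoters of Cxcl12 and Cxcl13 held neither. For Cxcl14 the start used lies inside the span given above, near 56296552, where the deposited data end the gene. Its window therefore also lies inside that span and is upstream of this start only. A looser form, GGGNNNNNCC, occurred in 50.4% of all promoters and was not used.

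**Figure D1:**
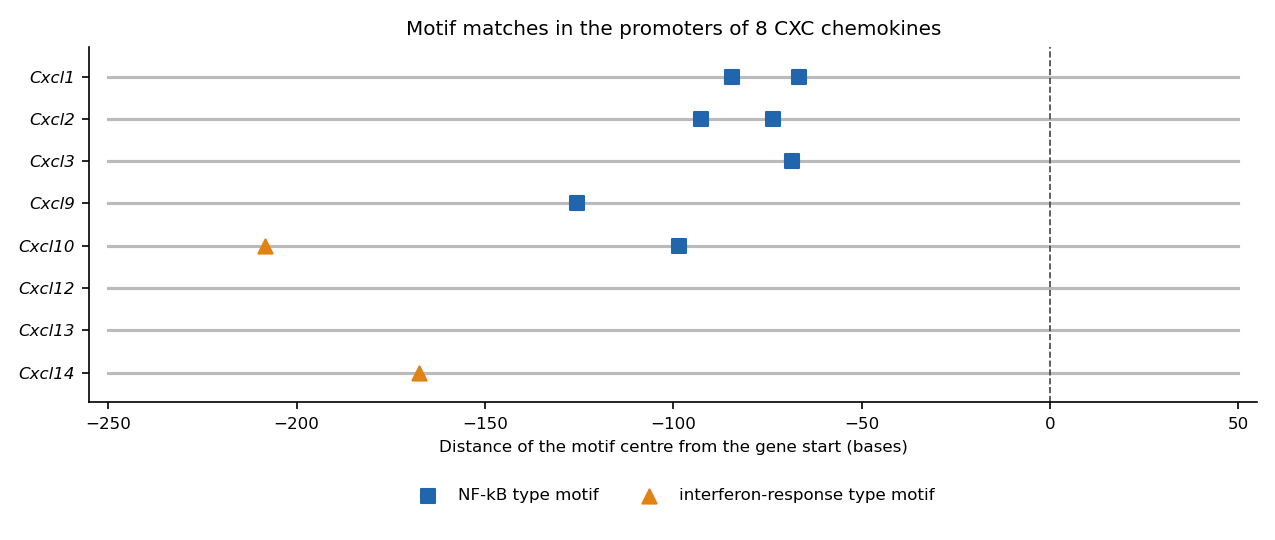
Position of motif matches, in bases from the gene start (dashed line), along the promoter of each of 8 CXC chemokines. For Cxcl14 the start used lies inside the span given for the gene in the text. Squares are centres of matches to the NF-kB type motif and triangles centres of matches to the interferon-response type motif; Cxcl1 and Cxcl2 carry 2 squares each, Cxcl10 carries both symbols, and Cxcl12 and Cxcl13 carry none.

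The labels were checked before the members were read. Asah1, which encodes acid ceramidase, was chosen for this check after its values were seen. It ranged from 5296 to 13703 CPM (read counts scaled to library size) in AC hearts at 4 h against 23.9 to 27.2 CPM in Luc hearts, from 104 to 305 against 22.0 to 24.7 CPM at 24 h, and from 42.5 to 112 against 21.4 to 28.2 CPM at 48 h. The 5 cardiomyocyte markers summed to at least 14872 CPM in every library, so that cardiac muscle was present throughout. Some libraries stood apart. The AC heart c at 24 h correlated with the other 24 h hearts at r between 0.954 and 0.963 over all tested genes and with a Luc heart at 48 h at up to 0.968, and its neutrophil markers summed to 267 CPM. The uninjected heart G at 24 h had the lowest neutrophil marker sum of its group, 256 CPM. Library names of the injected table carry a numbered suffix that runs over the sham and 4 h hearts, runs again over the 48 h hearts and is missing at 24 h, so any batch that it marks cannot be told apart from time. The summed atrial markers of that table were 0.945 to 3.02 CPM in sham and 4 h hearts, 23.5 to 353 CPM at 24 h and 4.35 to 95.04 CPM at 48 h, and their part in the differences between times was not tested.

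The first question was how the members moved in uninjected hearts after infarction. At 4 h post-MI, the neutrophil chemokines Cxcl1, Cxcl2 and Cxcl5 were higher than in sham hearts, and no member was lower. At 24 h, Cxcl1, Cxcl2, Cxcl3, Cxcl5, Cxcl10 and Cxcl16 were higher and Cxcl12 was lower. Differences were tested with limma on log2(CPM + 1) over the 12487 genes whose mean reached 1 CPM, q is the Benjamini-Hochberg adjusted p-value, and a change was called at a q under 0.05. On this scale the change of a gene with low values is understated. Of the members, 9 were tested at each time and Cxcl13 fell under the filter. At 4 h, 3 of 9 members were called higher and 0 lower, where 1.55% of all genes were called higher and 0.817% lower. At 24 h, 6 of 9 members were called higher and 1 lower, against 35.6% and 30.3% of all genes. The median log2 difference of the members was 0.39 at 4 h and 2.45 at 24 h, against -0.03 and 0.04 over all genes tested. Between 24 h and 4 h, 5 of 9 members were called higher and 1 lower, against 37.2% and 26.7% of all genes.

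Cxcl1, which binds Cxcr2 and attracts neutrophils, had the largest 4 h difference from sham of the members tested in uninjected hearts on the log2(CPM + 1) scale. Its level was 0.398, 1.05 and 1.04 CPM in the 3 sham hearts, 31.9, 36.3 and 33.6 CPM at 4 h and 61.2, 50.1, 29.6 and 41.6 CPM at 24 h. Every infarcted heart was far above every sham heart, while the 4 h and 24 h groups overlapped. The ratio of mean CPM to sham was 40.9 ± 18.6 at 4 h (SD propagated from both groups, n = 3 and 3) and 55.1 ± 29.6 at 24 h (n = 4 and 3), with log2 differences of 4.28 (SE 0.23, q = 1.73e-06) and 4.65 (SE 0.22, q = 7.52e-08). The difference between 24 h and 4 h was 0.37 on the log2 scale (95% confidence interval -0.10 to 0.85, q = 0.154). This difference was called without heart G at 24 h (0.56, q = 0.0135) and with array weights (0.47, q = 0.026).

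Cxcl2, another neutrophil chemokine, rose at both times. It was 0.145, 0.202 and 0.130 CPM in sham hearts, 6.15, 8.65 and 7.88 CPM at 4 h, and 73.3, 81.5, 21.8 and 49.3 CPM at 24 h. None of the 3 groups overlapped. The log2 difference from sham was 2.87 at 4 h (SE 0.38, q = 0.00207) and 5.47 at 24 h (SE 0.35, q = 4.33e-07), and mean CPM was 7.47 ± 3.77 times higher at 24 h than at 4 h (log2 difference 2.60, q = 7.39e-05).

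Cxcl3, also a Cxcr2 ligand, rose mainly between 4 h and 24 h. It stood at 0.0723, 0.0807 and 0.0650 CPM in sham hearts, which is about 2 reads in each, and at 0.580, 1.88 and 0.557 CPM at 4 h. At 24 h it reached 92.6, 96.1, 31.3 and 54.2 CPM. The groups did not overlap, but the 4 h difference of 0.84 on the log2 scale did not pass the test (95% confidence interval 0.02 to 1.66, q = 0.291), and it passed with a pseudocount of 0.1 CPM (2.48, q = 0.0176) or with array weights (0.73, q = 0.0427). The rise from 4 h to 24 h was 5.05 on the log2 scale (SE 0.35, q = 1.09e-06), a ratio of mean CPM of 68.1 ± 60.0.

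Cxcl5, which stromal and epithelial cells make, ranged from 0.0362 to 0.292 CPM in sham hearts. It was 2.29, 12.8 and 2.25 CPM at 4 h and 59.4, 51.6, 28.4 and 40.1 CPM at 24 h. Heart D stood well above the other 4 h hearts. The 4 h call (log2 difference 2.16, SE 0.47, q = 0.0388) was lost without any 1 of the 3 sham hearts (q between 0.0998 and 0.142), and without heart D at 4 h the difference was 1.46 (q = 0.0279). The log2 difference at 24 h was 5.22 (SE 0.44, q = 2.29e-06), and that between 24 h and 4 h was 3.07 (q = 0.000113), or 3.76 without heart D at 4 h.

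Of the interferon-induced ligands of Cxcr3, Cxcl10 was at 0.181, 0.444 and 0.357 CPM in sham hearts and at 0.526, 0.574 and 0.619 CPM at 4 h. At 24 h it was 7.73, 5.98, 3.99 and 7.88 CPM. The 4 h hearts were just above the sham hearts, with a log2 difference of 0.25 (q = 0.601), and the 24 h hearts stood well clear of both, with a difference from sham of 2.45 (SE 0.19, q = 1.5e-06). Cxcl9 was 0.362 to 1.75 CPM in sham hearts, 1.13 to 1.47 CPM at 4 h, and 3.75, 13.2, 1.49 and 0.989 CPM at 24 h. Its groups overlapped and it was not called at 24 h (log2 difference 1.08, q = 0.0988). It was called without heart G (q = 0.0449) or without heart H (q = 0.0318). Without heart D, the highest of the 24 h hearts, the difference was 0.50.

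Cxcl12, the most abundant member of the resting heart, fell. It was 208, 273 and 264 CPM in sham hearts, 226, 127 and 227 CPM at 4 h, and 77.9, 54.995, 180.1 and 100.1 CPM at 24 h. All 24 h hearts were below the lowest sham heart, and heart G came nearest to it. The mean at 24 h was 0.416 ± 0.227 of the sham mean (log2 difference -1.39, SE 0.34, q = 0.00357), while the 4 h difference was -0.40 (q = 0.638). The difference between 24 h and 4 h was -0.99 (q = 0.0236), and it did not pass without heart C or D at 24 h or heart C or E at 4 h (q between 0.0549 and 0.0898). In bulk tissue such as this, fewer cells of a type and less RNA per cell cannot be told apart. The summed endothelial markers were 494 to 497 CPM in sham hearts and 330.5 to 544 CPM at 24 h, the fibroblast markers 254 to 301 and 154 to 331 CPM, and their part in the Cxcl12 values was not tested.

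Cxcl16, the membrane-bound ligand of Cxcr6, was 6.86, 6.14 and 6.93 CPM in sham hearts, 8.39, 7.91 and 6.61 CPM at 4 h, and 14.98, 10.5, 11.2 and 13.0 CPM at 24 h. The 24 h hearts lay above all the others, at 1.87 ± 0.327 times the sham mean (log2 difference 0.80, SE 0.13, q = 0.000284). Cxcl14 was 10.8 to 11.7 CPM in sham hearts, 12.0 to 18.7 CPM at 4 h and 7.34 to 15.1 CPM at 24 h, and it was not called at either time (q = 0.445 and 0.68). Cxcl13, the B cell chemokine, was 0.0650 to 0.108 CPM in sham hearts, equal to 1 read in each 4 h heart, and 0.863, 2.28, 0.644 and 1.33 CPM at 24 h. Its 24 h hearts were all above its sham and 4 h hearts, by a mean of 1.196 CPM over sham (exact permutation test of the 4 hearts against 3, two-sided p = 0.0571, which is the smallest p this design allows).

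**Figure D2:**
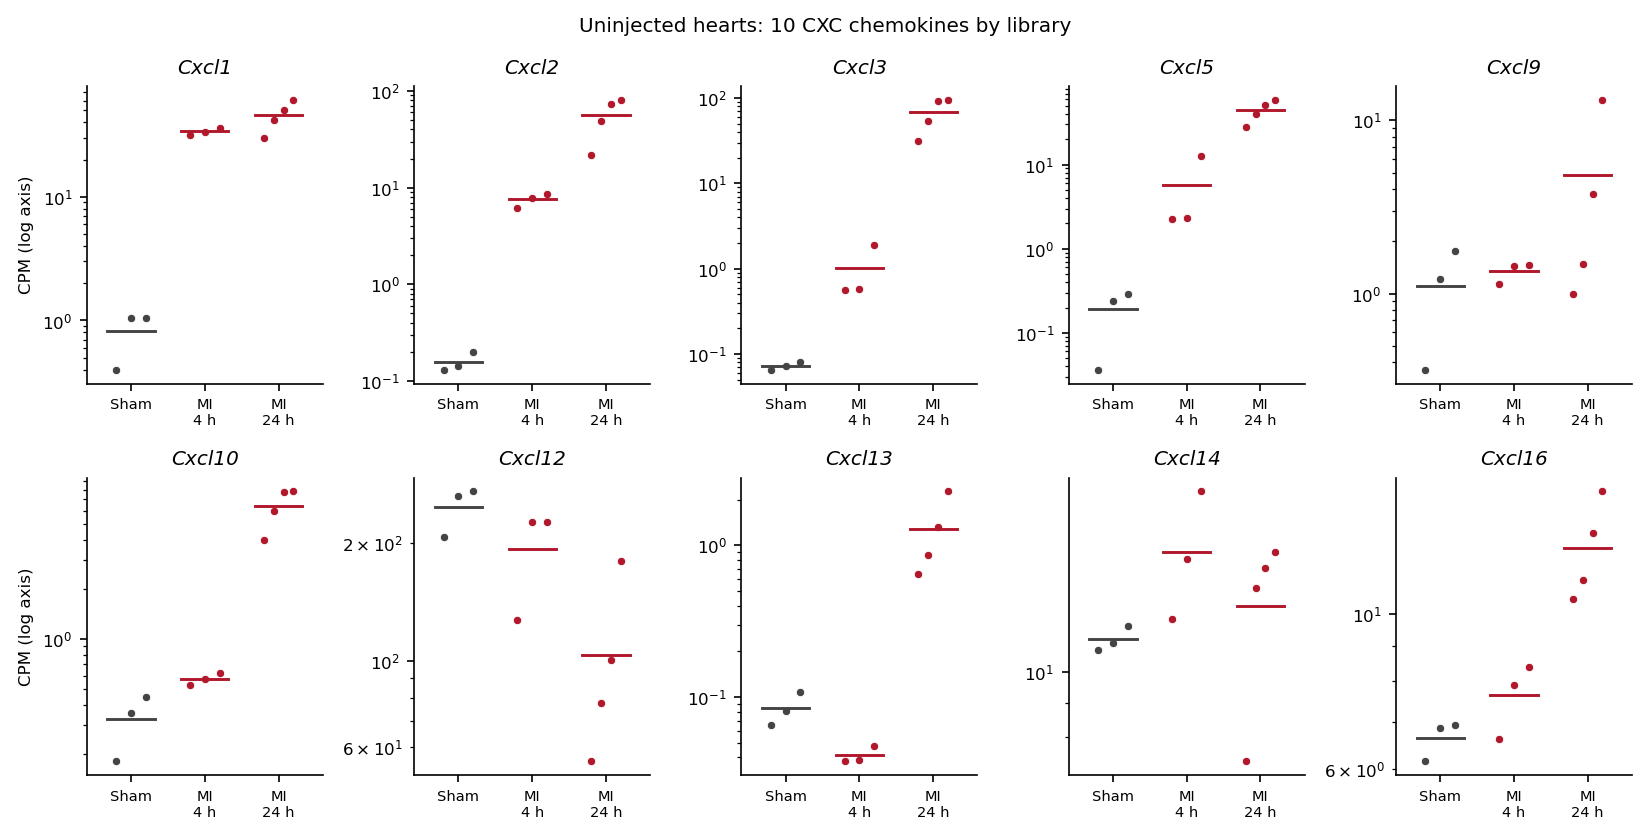
CPM (log axis) of the 10 CXC chemokines in each uninjected heart, with 3 sham hearts, 3 hearts 4 h post-MI and 4 hearts 24 h post-MI; points are libraries and bars are group means. Cxcl1 is near 34 CPM already at 4 h, Cxcl3 climbs mainly between 4 h and 24 h, and Cxcl12 falls at 24 h.

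The order of the members by level changed with time. Levels between genes were compared as CPM per kb of the longest protein-coding transcript, a scale that depends on the transcript chosen. In sham hearts, Cxcl12 led with a mean of 44.2 CPM per kb, followed by Cxcl14 with 6.12 and Cxcl16 with 2.46 CPM per kb, and the ranges of these 3 did not overlap. The other members had means between 0.0715 and 0.870 CPM per kb, and each overlapped the next. At 4 h, Cxcl1 (35.6 CPM per kb) and Cxcl12 (34.4 CPM per kb) led with overlapping ranges. At 24 h, the leaders were Cxcl3, Cxcl1, Cxcl2, Cxcl5 and Cxcl12, with means of 67.5, 47.9, 30.4, 28.5 and 18.4 CPM per kb, and each overlapped its neighbour. Sham hearts of the injected table likewise had Cxcl12 first (33.4 CPM per kb) and Cxcl14 next (7.64 CPM per kb), with ranges that did not overlap.

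The receptors were read next, since the ligands act through them. In uninjected hearts, 0 of the 5 receptors tested with limma were called at 4 h (1, Ackr1, at an unadjusted p under 0.05), and at 24 h 4 were called higher and 1 lower, where 35.6% of all genes were called higher and 30.3% lower. Cxcr2, the neutrophil receptor of Cxcl1, Cxcl2, Cxcl3 and Cxcl5, was 0.0723 to 0.0975 CPM in sham hearts, 0.564 to 2.25 CPM at 4 h, and 133, 134, 26.7 and 74.9 CPM at 24 h. Its 24 h rise was 6.18 on the log2 scale (q = 1.19e-06), and heart G was again the lowest of its group. Cxcr6, the receptor of Cxcl16, was 0.217 to 0.292 CPM in sham hearts and 6.23 to 17.5 CPM at 24 h (log2 difference 3.21, q = 2.16e-06). Cxcr4, the receptor of Cxcl12, was 6.44 to 6.63 CPM in sham hearts and 14.0 to 35.4 CPM at 24 h (1.52, q = 0.00038), and thus moved opposite to its ligand. Ackr3, which takes up Cxcl12, fell by 0.49 on the log2 scale (q = 0.0316), with 69.3 to 98.2 CPM in sham hearts and 48.5 to 70.2 CPM at 24 h. Ackr1, a chemokine-binding receptor of venules and red blood cells, was 0.0807 to 0.145 CPM in sham hearts and 2.51 to 5.67 CPM at 24 h (2.11, q = 4.69e-05). Cxcr1 reached at most 1.31 CPM and Cxcr5 at most 0.751 CPM, and neither was tested; Cxcr3 was absent from this table. The 5 neutrophil markers summed to 1.21 to 1.70 CPM in sham hearts, 6.69 to 27.7 CPM at 4 h and 256 to 1678 CPM at 24 h, and they moved with Cxcr2. The monocyte and macrophage markers were 83.4 to 148, 102 to 117 and 228 to 431 CPM in the same groups, the cardiomyocyte markers fell from at least 34128.5 CPM in sham hearts to at most 26017 CPM at 24 h, and the part of these cell types in the ligand values was not tested.

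The other genes of the pathway were taken from lists, whose counts stand beside shares of all genes called higher and lower of 1.55% and 0.817% at 4 h and 35.6% and 30.3% at 24 h. After rescaling, the calls of these lists and of the receptors at 4 h and 24 h against sham stayed, and Dpp4 was added as lower at 24 h. Of the inducing cytokines, 5 of 8 were tested, and 3 were called higher at 4 h, namely Il6 (log2 difference 4.52), Il1b (2.21) and Csf3 (1.98). All 5 tested were called higher at 24 h, led by Il1b (5.74), Il6 (4.49) and Csf3 (1.92). Of the 12 NF-kB and interferon factors and feedback genes, 4 were called higher at 4 h, led by the RNA-binding protein gene Zfp36 (3.22), Nfkbiz (2.47) and Tnfaip3 (1.64), which restrain or tune NF-kB output. At 24 h, 10 of the 12 were higher and 0 lower, led by Nfkbiz (2.85), the interferon factor Irf7 (2.80) and Tnfaip3 (2.18). Of the 6 proteases that cut chemokines, 0 were called with limma at 4 h (1, Mmp2, at an unadjusted p under 0.05), and at 24 h the neutrophil enzymes Mmp9 (4.95) and Mmp8 (3.85) were higher and Mmp2 was lower (-0.85). Adam10 and Adam17, which shed Cxcl16, had log2 differences of 0.12 and -0.11 at 24 h and were not called. Of the proteoglycans that hold chemokines at the cell surface, Sdc4 was higher at 4 h (1.28) and at 24 h (2.65), and Sdc1 at 24 h (3.08). The platelet CXC ligands Ppbp (2.14) and Pf4 (1.90) were higher at 24 h.

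**Figure D3:**
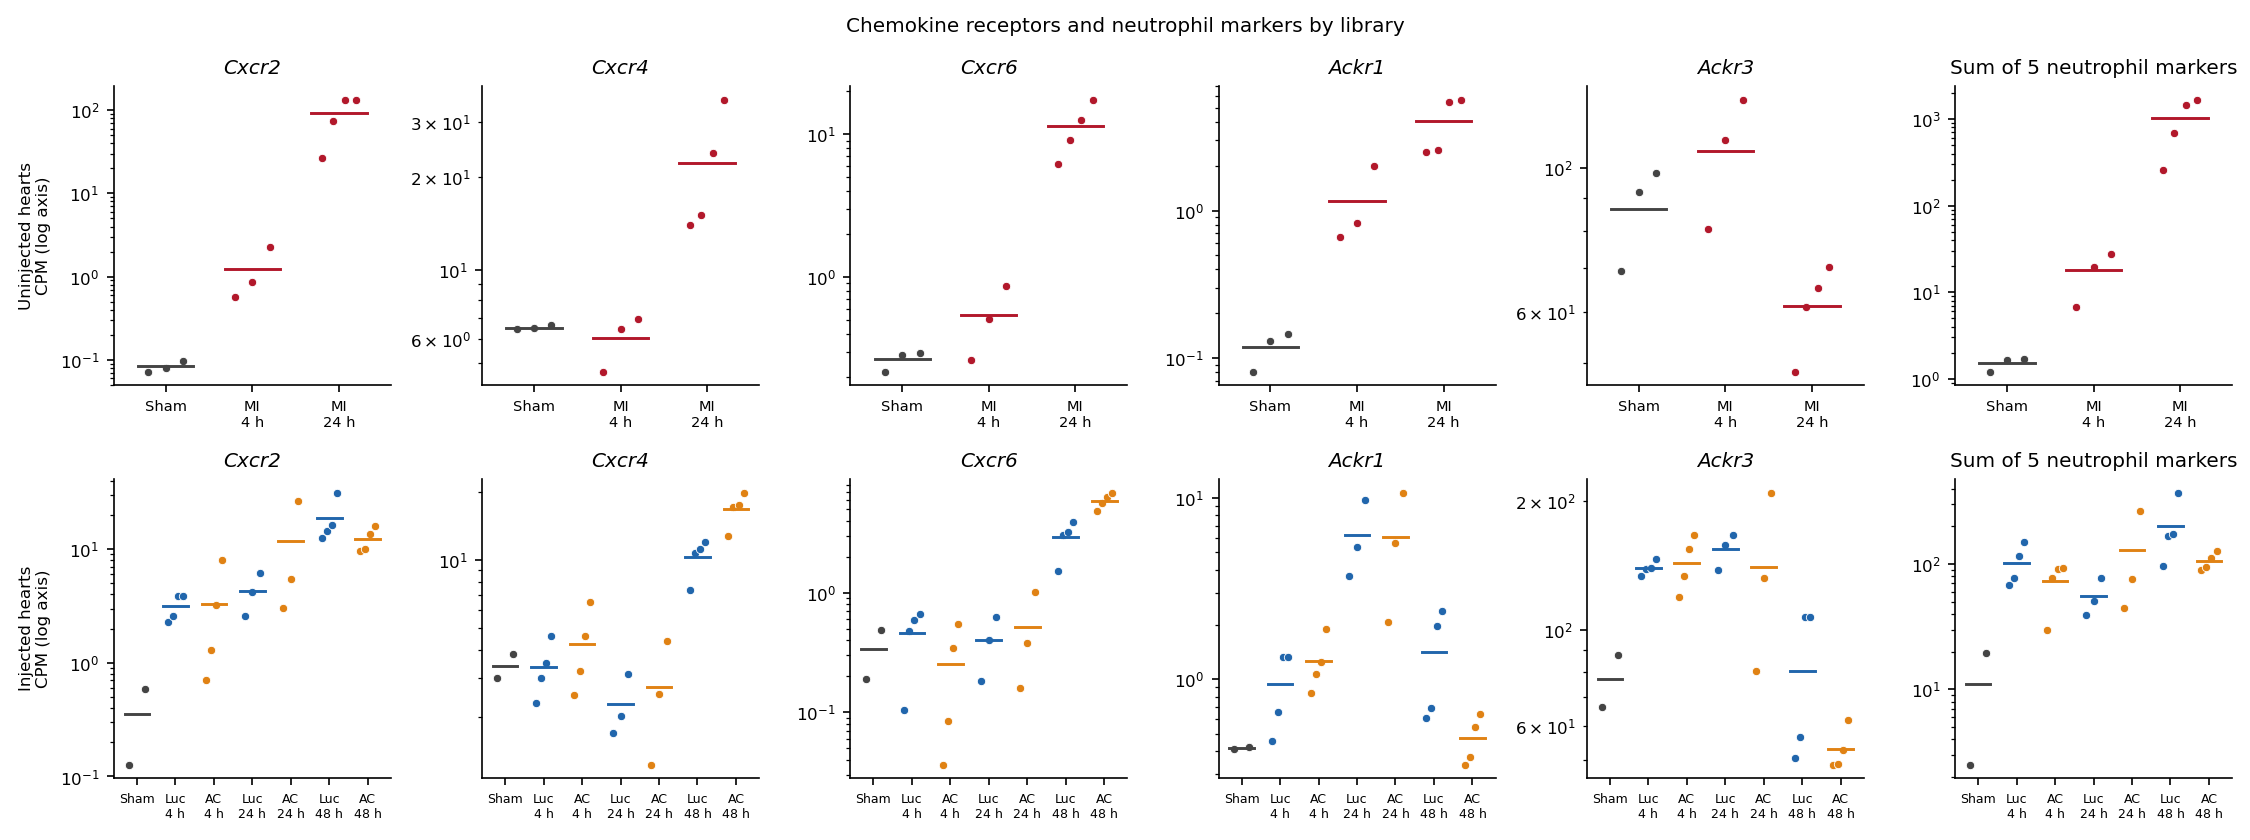
CPM (log axis) of 5 receptors of CXC chemokines and of the sum of 5 neutrophil markers in each library, in uninjected hearts (top) and in the table of injected hearts (bottom); points are libraries and bars are group means. Cxcr2 and the neutrophil marker sum are highest at 24 h in uninjected hearts, where Cxcr2 is 26.7 to 134 CPM, and in Luc hearts Cxcr2 is highest at 48 h.

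In the injected hearts, the Luc groups show the course after ligation and a control injection together. Cxcl10 was called higher at 4 h, 8 members at 24 h and 3 members at 48 h. With limma over 12555 genes, 1 of 10 members was called higher and 0 lower at 4 h, against 1.25% and 0.295% of all genes. At 24 h, 8 members were higher and 0 lower, against 25.3% and 8.79% of all genes. At 48 h, 3 were higher and 0 lower, against 13.7% and 16.4%. From 4 h to 24 h, 6 were higher and 1 lower, against 24.5% and 7.8%, and from 24 h to 48 h, 0 were higher and 6 lower, against 9.32% and 32.6%. The medians of the members' log2 differences were 1.15, 3.83 and 1.16 against sham, 1.82 from 4 h to 24 h and -1.63 from 24 h to 48 h, and those of all genes were 0.02, 0.16, -0.03, 0.14 and -0.25.

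The scaling between libraries bore on the comparisons with 24 h hearts. Median-ratio rescaling shifted the median of all genes by -0.17 for Luc 24 h against sham, by -0.15 for 24 h against 4 h and by 0.22 for 48 h against 24 h on the log2 scale. After rescaling, the shares of all genes called higher and lower were 18.3% and 16.3%, 15.7% and 14.2%, and 15.9% and 16.6%. Relative to that shift, all 8 members called at 24 h against sham were called again and Cxcl12 was added as lower (-1.08, q = 0.0168), 6 of the 7 called between 4 h and 24 h were called again, Cxcl2 being lost (q = 0.0526), and the 6 that fell from 24 h to 48 h fell again, while Cxcl12 was added as higher (0.77, q = 0.0387; also with array weights, 0.63, q = 0.0458).

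Cxcl1 was 3.91 and 4.79 CPM in the 2 sham hearts, and in Luc hearts 72.3, 36.5, 61.4 and 37.9 CPM at 4 h, 675, 86.6 and 83.0 CPM at 24 h and 21.5, 7.51, 22.7 and 5.36 CPM at 48 h. Heart A at 24 h stood far above the other 24 h hearts. At 4 h no Luc heart came near the sham hearts, at a ratio of 12.0 ± 4.41 (n = 4 and 2), but the call missed the threshold (log2 difference 3.25, SE 0.86, q = 0.0565), and it passed when only these 2 groups were in the model (q = 6.71e-05), with a pseudocount of 0.1 CPM (3.49, q = 0.0337) and with the replicate block (q = 0.00159). At 24 h the log2 difference was 5.001 (q = 0.000268), or 4.01 without heart A (q = 0.00191), and from 24 h to 48 h Cxcl1 fell by 3.71 (q = 0.000687), or by 2.72 without heart A (q = 0.00779).

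Cxcl2 was 0.521 and 0.952 CPM in sham hearts, and in Luc hearts 19.2, 9.78, 13.1 and 9.93 CPM at 4 h, 240, 33.4 and 25.9 CPM at 24 h and 21.6, 5.54, 27.9 and 1.87 CPM at 48 h. Heart A was again far above the rest, and 48 h hearts 1 and 3 were above hearts 2 and 4. The log2 difference from sham at 4 h was 2.97 and missed the threshold (q = 0.0874), and it passed with a pseudocount of 0.1 CPM (3.96, q = 0.019), with only the groups compared in the model (q = 9.16e-05) and with the replicate block (q = 0.00777). It was 5.14 at 24 h (q = 0.000187) and 2.61 at 48 h (q = 0.0239), and the 48 h call was lost without either sham heart (q = 0.0768 and 0.146) without heart 1 or 3 at 48 h (q = 0.066 and 0.0749), with only the groups compared (q = 0.0585) and with array weights (q = 0.141). The calls from 4 h to 24 h (2.17, q = 0.031) and from 24 h to 48 h (-2.53, q = 0.0103) did not hold without heart A (q = 0.265 and 0.107), and the former was lost also without heart 2, 3 or 4 at 4 h.

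Cxcl3 and Cxcl5 remained raised at 48 h. Cxcl3 was 0.0978 and 0.0317 CPM in sham hearts, and in Luc hearts 2.11, 0.605, 1.62 and 0.968 CPM at 4 h, 34.6, 4.74 and 1.88 CPM at 24 h and 19.1, 8.30, 15.6 and 3.47 CPM at 48 h. The 24 h and 48 h groups overlapped. The log2 difference from sham was 1.08 at 4 h and was called when only these groups were in the model (q = 0.0327), and it was 2.98 at 24 h (q = 0.0036) and 3.35 at 48 h (q = 0.0011). Without heart A at 24 h, Cxcl3 was called higher at 48 h than at 24 h (log2 difference 1.42, q = 0.0392), whereas with all hearts this difference was 0.37 (q = 0.648). Its call from 4 h to 24 h (1.89, q = 0.0217) was lost without heart A (0.85, q = 0.254) and without heart 2 at 4 h (q = 0.0593).

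Cxcl5 was 0.684 and 0.698 CPM in sham hearts, 9.30, 2.18, 6.57 and 3.06 CPM in Luc hearts at 4 h, 204, 36.9 and 9.36 CPM at 24 h and 28.8, 16.9, 15.02 and 11.6 CPM at 48 h. Hearts A and D at 24 h marked the top and the bottom of a wide group. The log2 difference from sham was 1.73 at 4 h, called when only these groups were in the model (q = 0.035). It was 4.67 at 24 h (q = 9.74e-05), between 3.55 without heart A and 5.70 without heart D, and 3.42 at 48 h (q = 0.00132). The fall from 24 h to 48 h did not pass (-1.26, q = 0.119), and it passed without heart D (-2.29, q = 0.00598).

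The interferon-induced pair was raised at 24 h in Luc hearts and fell from 24 h to 48 h. Cxcl10 was 0.261 and 0.317 CPM in sham hearts, and in Luc hearts 76.6, 37.8, 58.3 and 35.8 CPM at 4 h, 128, 115 and 85.0 CPM at 24 h and 1.13, 1.02, 7.66 and 0.968 CPM at 48 h. Every 4 h and 24 h Luc heart was far above both sham hearts, and 48 h heart 3 stood above the other 48 h hearts. The log2 difference from sham was 5.29 at 4 h (SE 0.67, q = 7.63e-05), 6.40 at 24 h (SE 0.71, q = 1.14e-06) and 1.18 at 48 h (q = 0.195), and the difference between 48 h and 24 h was -5.21 (q = 3.3e-06). The 48 h hearts did not overlap the sham hearts, and with a pseudocount of 0.1 CPM their difference was called (2.25, q = 0.026). The difference between 24 h and 4 h was called with only these groups in the model (1.103, q = 0.00619) and with array weights (1.32, q = 0.00977). In uninjected hearts the same gene was 0.526 to 0.619 CPM at 4 h. The 2 tables were normalized separately, so these levels are set side by side without a test, and the injection cannot be told apart from the other differences between the experiments.

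Cxcl9 was 1.66 and 0.857 CPM in sham hearts, 4.79, 3.51, 4.84 and 3.79 CPM in Luc hearts at 4 h, 142, 56.1 and 23.4 CPM at 24 h and 1.31, 0.555, 2.39 and 0.415 CPM at 48 h. The 4 h hearts did not overlap the sham hearts but were not called (log2 difference 1.23, q = 0.414), though they were with only these groups in the model (q = 0.00485). The 24 h hearts were called higher (4.72, SE 0.69, q = 2.58e-05), and the 48 h hearts overlapped the sham hearts (-0.13, q = 0.907). The 24 h difference was 4.07 without heart A and 5.34 without heart D.

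Among genes of the same list or pathway, the third Cxcr3 ligand, Cxcl11, was 0 and 0.0635 CPM in sham hearts, 0.772 to 1.32 CPM in Luc hearts at 4 h, 4.86 to 22.6 CPM at 24 h (log2 difference from sham 3.62, q = 5.23e-05) and 0.166 to 1.62 CPM at 48 h. Ifnb1, which encodes interferon beta, was 0.0326 and 0 CPM in sham hearts, 0.338 to 1.75 CPM in Luc hearts at 4 h, 0.353 to 0.475 CPM at 24 h and 0 in 3 of the 4 Luc hearts at 48 h. It was under the filter and was not tested. Ifng, which encodes interferon gamma, reached at most 0.140 CPM, in a Luc heart at 4 h. The receptor Cxcr3 stayed at or under 0.461 CPM in all libraries and was not tested.

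Cxcl12 was 178 and 198 CPM in sham hearts, and in Luc hearts 203, 207, 219 and 197 CPM at 4 h, 114, 84.0 and 107 CPM at 24 h and 132, 138, 122 and 203 CPM at 48 h. The 24 h hearts were below all sham, 4 h and 48 h Luc hearts. Cxcl12 fell by 1.03 on the log2 scale from 4 h to 24 h (SE 0.29, q = 0.00978; without heart C at 24 h, q = 0.0502), and the difference between 24 h and sham was -0.89 (q = 0.0517, and 0.0122 with only these groups in the model). In these 24 h hearts the endothelial markers summed to 581 to 730 CPM, against 361 to 466 CPM in sham hearts. The fibroblast markers summed to 281 to 551 against 252 to 280 CPM, and the cardiomyocyte markers to at least 45600 CPM in the 24 h hearts. The part of these cell types in the Cxcl12 values was not tested.

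Cxcl13 was 0.0652 and 0.127 CPM in sham hearts, 0.105 to 0.305 CPM in Luc hearts at 4 h, 14.4, 2.04 and 8.89 CPM at 24 h and 3.58, 0.321, 4.14 and 0.111 CPM at 48 h. It was far above sham at 24 h (log2 difference 2.82, SE 0.54, q = 0.000432, or 3.49 without heart C), and at 48 h hearts 1 and 3 were well above hearts 2 and 4. The 48 h difference from sham was not called (1.15, q = 0.094), but was called without heart 2 (q = 0.0386) or heart 4 (q = 0.0203) and with a pseudocount of 0.1 CPM (2.49, q = 0.0357), and the fall from 24 h to 48 h (-1.67, q = 0.00543) was lost without heart A (q = 0.0522) and with only the groups compared (q = 0.0785), and was -2.35 without heart C. Its receptor Cxcr5 stayed between 0.166 and 1.13 CPM in all libraries, and the B cell markers summed to 0.401 to 5.29 CPM over all groups.

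Cxcl14 was 14.5 and 13.5 CPM in sham hearts, and in Luc hearts 30.9, 19.2, 29.1 and 20.8 CPM at 4 h, 88.3, 32.3 and 59.1 CPM at 24 h and 28.4, 13.8, 24.0 and 10.6 CPM at 48 h. It was 4.29 ± 2.02 times the sham mean at 24 h (log2 difference 1.91, SE 0.41, q = 0.00118), and it fell again by 1.58 from 24 h to 48 h (q = 0.00111). The rise from 4 h to 24 h (1.14, q = 0.0141) was lost without heart A (0.81, q = 0.114). Cxcl16 was 7.70 and 7.73 CPM in sham hearts, 10.8 to 13.0 CPM in Luc hearts at 4 h, 25.6, 11.2 and 7.29 CPM at 24 h and 7.88 to 11.2 CPM at 48 h. It was called in none of the 5 Luc comparisons (q between 0.0829 and 0.81), though without heart D the 24 h difference from sham (1.04, q = 0.0066) and that between 48 h and 24 h (-0.74, q = 0.0218) were called, as was the 4 h difference from sham with only these groups in the model (0.58, q = 0.0435).

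**Figure D4:**
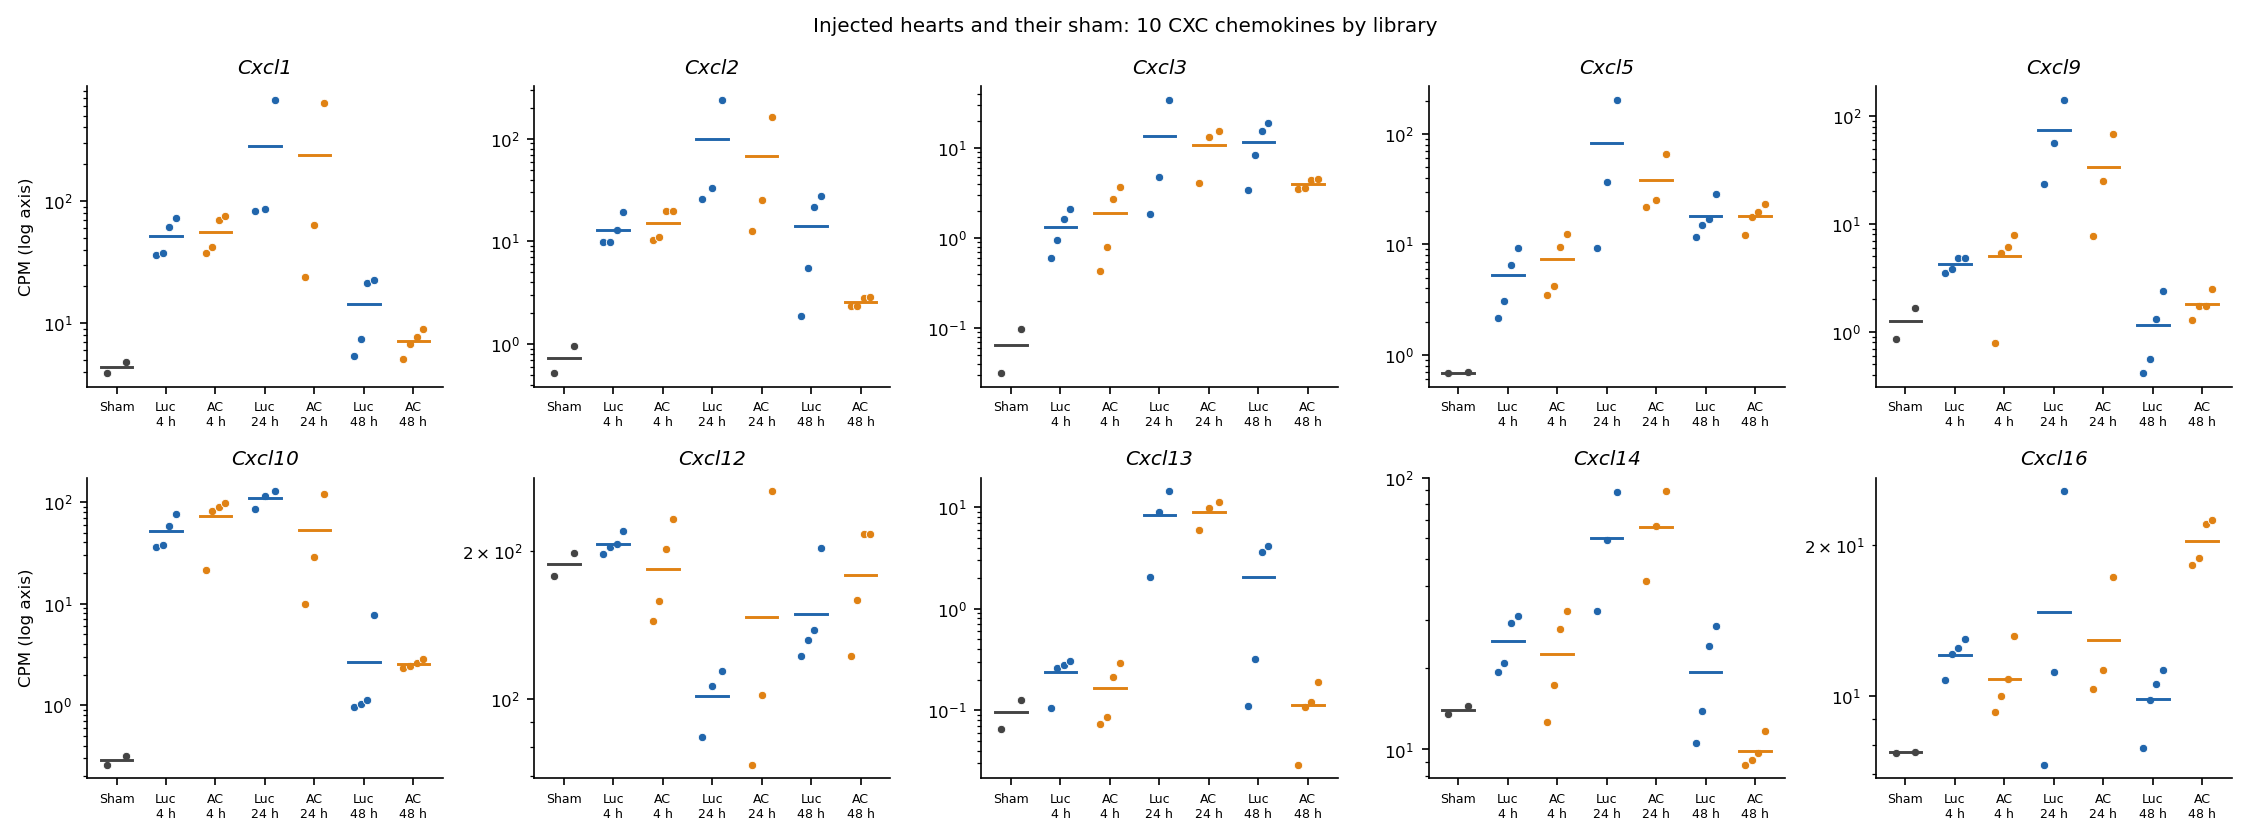
CPM (log axis) of the 10 CXC chemokines in each library of the table of injected hearts, with 2 sham hearts without injection and 4, 3 or 4 hearts of each modRNA at 4, 24 and 48 h post-MI; points are libraries and bars are group means. Cxcl10 is at 35.8 CPM or above in every Luc heart at 4 h and 24 h and at 7.66 CPM or below at 48 h, and Cxcl16 is higher in AC than in Luc hearts at 48 h.

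Among the receptors in Luc hearts, Cxcr2 was higher than sham at 24 h and 48 h, Cxcr4 and Cxcr6 at 48 h, and Ackr1 and Ackr3 at 24 h. Of the 5 tested, 0 were called against sham at 4 h with limma (2, Cxcr2 and Ackr3, at an unadjusted p under 0.05), 3 were higher at 24 h and 3 at 48 h, and 0 were lower at any of these times, against 1.25%, 25.3% and 13.7% of all genes higher and 0.295%, 8.79% and 16.4% lower. Rescaling left these receptor calls in place. Cxcr2 was 0.587 and 0.127 CPM in sham hearts, 2.28 to 3.88 CPM at 4 h, 2.59 to 6.16 CPM at 24 h (log2 difference from sham 1.93, q = 0.0174) and 12.6 to 31.4 CPM at 48 h (3.79, q = 5.38e-05). Its rise from 24 h to 48 h passed (1.86, q = 0.00591), while Cxcl1 and Cxcl2 fell. The neutrophil markers summed to 2.51 and 19.6 CPM in sham hearts, 68.1 to 151 CPM at 4 h, 39.0 to 77.6 CPM at 24 h and 95.9 to 371 CPM at 48 h. Cxcr6 (0.190 to 0.489 CPM in sham hearts, 1.53 to 3.89 CPM at 48 h) and Cxcr4 (2.98 to 3.81 CPM, 7.33 to 12.0 CPM) were higher at 48 h by 1.52 (q = 0.000158) and 1.35 (q = 0.00222), and not called at 24 h. Ackr1 and Ackr3 were called higher at 24 h, by 2.27 (q = 0.000257) and 1.004 (q = 0.0144), and both fell from 24 h to 48 h.

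The lists of inducing genes and proteases were read against the same shares of all genes, and against 32.6% lower and 9.32% higher from 24 h to 48 h. All 5 inducing cytokines tested were higher than sham at 24 h, led by Csf3 (log2 difference 4.79), Il6 (3.64) and Tnf (3.27), and 2 were at 4 h, Il6 (3.50) and Il1b (2.84). From 24 h to 48 h, 3 fell and 0 rose, led by Csf3 (-4.11), while Il1b was the cytokine still called higher than sham at 48 h (2.27). All 12 factors and feedback genes were higher than sham at 24 h, led by Irf7 (5.46), Tnfaip3 (4.28) and Stat2 (3.37), and all 12 fell from 24 h to 48 h. At 4 h, 3 of the 12 were higher, namely Zfp36 (3.01), Tnfaip3 (2.90) and Nfkbiz (2.21), and at 48 h 3 were, led by Irf7 (4.16). Of the proteases, Mmp9 (1.64), Mmp8 (1.56) and Mmp2 (1.45) were higher at 24 h and Dpp4 (-1.04) and Adam17 (-0.66) lower, and at 48 h Mmp9 (3.603) and Mmp8 (2.96) were higher and Dpp4 lower (-0.85). Sdc4 was higher at 4 h (2.14), 24 h (2.41) and 48 h (1.66), and Sdc1 at 24 h (0.88) and 48 h (1.99). After rescaling, 12 of the 12 factors were again higher at 24 h and 11 fell from 24 h to 48 h, Nfkb1 being lost, and Nfkbiz and Tnfaip3 lost their 4 h calls. Mmp8 was no longer called at 24 h, Adam10 was added as lower, and the cytokine calls named here stayed.

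AC and Luc hearts were compared at each time to ask whether AC modRNA altered the chemokines. With limma, 0 of 10 members were called at 4 h and 0 at 24 h, against 0.00796% of all genes higher and 0% lower at both times. That share is 1 gene at each time, Asah1, which served as the label check. At an unadjusted p under 0.05, 0 members passed at 4 h and 1, Cxcl10, at 24 h. At 48 h, 1 member, Cxcl16, was called higher and 0 lower, against 12.1% and 3.27% of all genes. After median-ratio rescaling, which shifted the median of all genes by -0.13 at 48 h, these shares were 6.56% and 6.38%, Cxcl16 was again called higher and Cxcl14 was added as lower (-0.95, q = 0.0496). The members' log2 differences had medians of 0.05, -0.18 and -0.32 at 4, 24 and 48 h, beside 0.01, -0.03 and 0.14 over all genes. The 95% confidence intervals of the members together spanned -1.35 to 1.66 at 4 h and -2.99 to 1.696 at 24 h, so the misses at these times leave room for sizeable differences in either direction. None of the receptors, inducing cytokines, factors, proteases or proteoglycans was called by limma at 4 h or 24 h (at an unadjusted p under 0.05, 0 at 4 h and 1, Stat2, at 24 h). The other CXC ligands tested were not called at these times either, and Cxcl11 had an unadjusted limma p under 0.05 at 24 h. Its values at 24 h were 11.9, 1.11 and 4.16 CPM in AC against 22.6, 13.7 and 4.86 CPM in Luc hearts.

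Cxcl16, which is shed by Adam10 and Adam17 and binds Cxcr6, was 18.3, 22.4, 22.0 and 18.9 CPM in AC hearts at 48 h against 11.2, 10.6, 7.88 and 9.82 CPM in Luc hearts. The groups did not overlap, and the AC mean was 2.07 ± 0.373 times the Luc mean (log2 difference 0.98, 95% confidence interval 0.51 to 1.46, q = 0.00687). At 4 h and 24 h the differences were -0.15 (-0.63 to 0.32) and -0.03 (-0.58 to 0.52). Cxcr6 and both proteases were also called higher at 48 h, where 12.1% of all genes were. Cxcr6 was 4.78 to 6.86 CPM in AC and 1.53 to 3.89 CPM in Luc hearts (0.84, q = 0.00971), and Adam17 (0.68) and Adam10 (0.49) were higher. After rescaling, where 6.56% of all genes were higher, Cxcr6 (0.73, q = 0.0227) and Adam17 (0.54, q = 0.0344) were called again and Adam10 was not (0.34, q = 0.159). In the same hearts the fibroblast markers summed to 904 to 1633 CPM in AC against 283 to 735 CPM in Luc hearts, the monocyte and macrophage markers to 332 to 501 against 137 to 204 CPM, and the cardiomyocyte markers to at most 24572 against at least 24672 CPM. The part of these cell types in the Cxcl16 difference was not tested.

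Cxcl13, Cxcl14 and Cxcl2 were lower in AC hearts at 48 h on average, without passing the test. Cxcl13 was 0.0290, 0.120, 0.190 and 0.107 CPM in AC hearts, and in Luc hearts ranged from 0.111 to 4.14 CPM (log2 difference -1.13, q = 0.0697, and -2.42, q = 0.0293 with a pseudocount of 0.1 CPM). Cxcl14 was 8.79 to 11.7 CPM in AC and 10.6 to 28.4 CPM in Luc hearts (-0.81, q = 0.0883). Cxcl2 was 2.34 to 2.89 CPM in AC and 1.87 to 27.9 CPM in Luc hearts (-1.55, q = 0.135). Luc heart 4 was the lowest Luc heart for all 3 genes, and without it 4 members were called, Cxcl16 higher and Cxcl13 (q = 0.0115), Cxcl14 (q = 0.0242) and Cxcl2 (q = 0.025) lower. Without Luc heart 2, 2 members were called, Cxcl16 and Cxcl13. Shares of all genes called in these fits with a heart left out are not given here, so these counts cannot be set against them. Luc hearts 1 and 3 were above Luc hearts 2 and 4 for all 3 genes. With 1 heart left out, the smallest differences were -0.77 for Cxcl13, -0.59 for Cxcl14 and -1.07 for Cxcl2.

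At 24 h, AC heart a and Luc heart A shared very high Cxcl1 (632 and 675 CPM) and Cxcl2 (164 and 240 CPM), while AC heart c had the lowest Cxcl1 (24.0 CPM), Cxcl2 (12.6 CPM), Cxcl9 (7.69 CPM) and Cxcl10 (10.0 CPM) of that group and the highest Cxcl12 (264 CPM). Cxcl10 was 120, 10.0 and 28.8 CPM in AC against 128, 115 and 85.0 CPM in Luc hearts, and the log2 difference of -1.67 (95% confidence interval -2.99 to -0.35) did not pass over all genes (q = 0.969). At 4 h, AC heart 1 had the lowest Cxcl10 (21.2 CPM) and Cxcl9 (0.797 CPM) of the injected hearts of that time, and the highest sum of red blood cell markers, 10672 CPM.

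**Figure D5:**
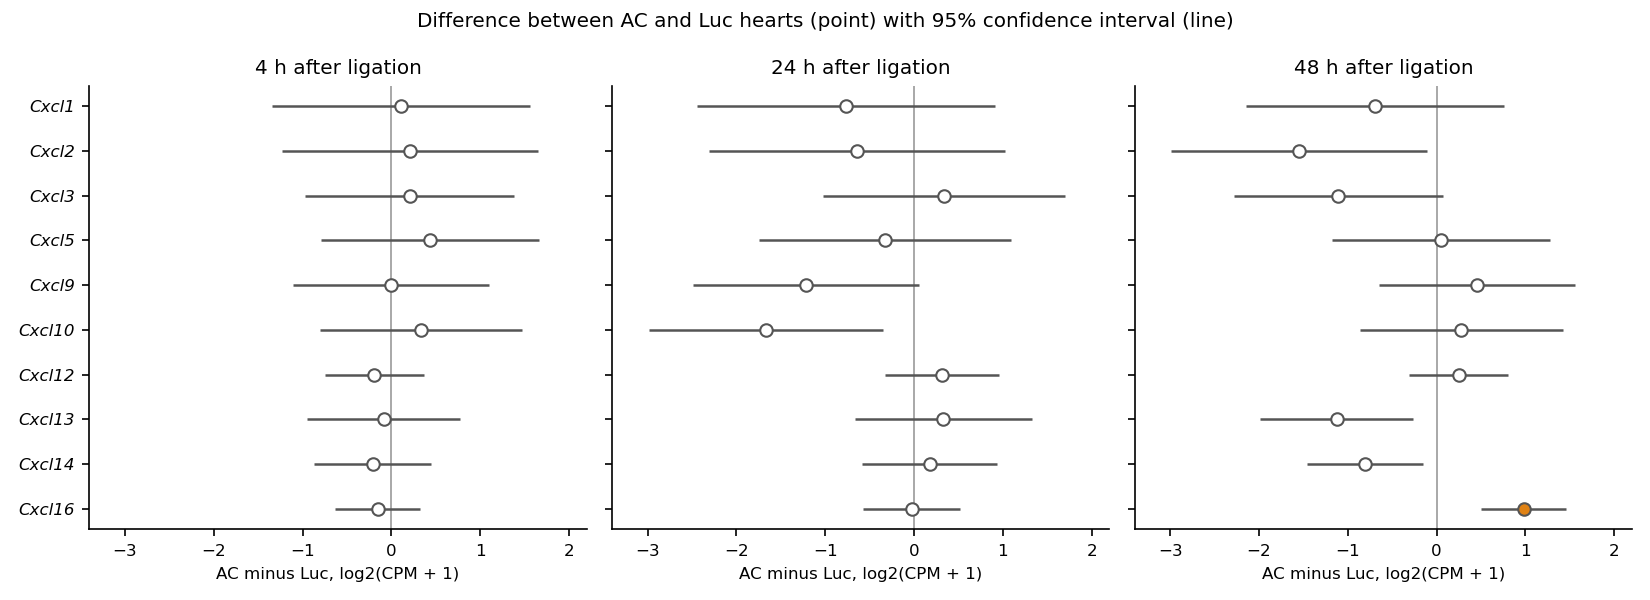
Difference between AC and Luc hearts in log2(CPM + 1) for each CXC chemokine at 4, 24 and 48 h post-MI; points are estimates from limma, lines are 95% confidence intervals, and the filled point is the difference with a q under 0.05. Cxcl16 at 48 h is at 0.98, and the other points are open.

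Whether the AC effect differed between times was tested with interaction contrasts in limma, and 0 of 10 members were called in each. All genes were called in 0% (larger) and 0.00796% (smaller) of cases for 24 h against 4 h, in 2.88% and 0.47% for 48 h against 4 h, and in 2.23% and 0.335% for 48 h against 24 h. The 0.00796% is 1 gene, Asah1. After rescaling, the last 2 pairs of shares were 2.13% and 1.49%, and 1.3% and 1.01%. At an unadjusted p under 0.05, Cxcl10 passed in the first contrast, Cxcl16 in the second, and Cxcl10, Cxcl13 and Cxcl16 in the third. The Cxcl16 difference between 48 h and 4 h was 1.14 (95% confidence interval 0.46 to 1.81, q = 0.054).

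The genes whose log2(CPM + 1) was most like that of each member over all libraries of a table were listed as a description, since the libraries share groups and time points. In the 10 uninjected hearts, Cxcl1 was closest to Junb (Pearson r = 0.998), Il6 (0.994) and Socs3 (0.992), genes of the immediate early and IL-6 responses. Cxcl3 was closest to Sh2d5 (0.999), Adam8 (0.998) and Cxcr2 (0.998), and Cxcl5 to Sbno2 (0.994). Cxcl12 was closest to Gna11 (0.987) and Cxcl2 to Ppp1r15a (0.995). Cxcl10 was closest to Fpgs (0.998), Cxcl9 to Psmb10 (0.960), Cxcl16 to Alkbh2 (0.989) and Cxcl14 to Trp53bp2 (0.862). In the 24 libraries of the injected table, Cxcl1 was closest to Tnfaip3 (0.986), Birc3 (0.970) and Ptx3 (0.968). Cxcl3 was closest to Fpr1 (0.946) and Fpr2 (0.933), receptors of formyl peptides on neutrophils. Cxcl9 was closest to Cxcl11 (0.971), Irgm1 (0.961) and Serpina3g (0.951), and Cxcl10 to Il6 (0.955), Socs3 (0.950) and Midn (0.946). Cxcl16 was closest to Ccnd1 (0.897), and Cxcl14 to Glul (0.925). Cxcl2 was closest to Map3k8 (0.953), Cxcl5 to Slc7a11 (0.949), Cxcl12 to 4930402H24Rik (0.894) and Cxcl13 to Chgb (0.965).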

How the data were processed

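Poly(A) RNA was sequenced as single 50-bp reads. The authors used STAR with mm10, assigned reads to RefSeq genes by expectation maximization in Partek Flow, and applied TMM scaling, and what they deposited is CPM; the table of injected hearts holds CPM + 1, from which 1 was subtracted here. These methods describe the 10 uninjected libraries and are not given in the sources used here for the 24 others. Taking the lowest value of an uninjected library as 1 read gave 12553519 to 18952669 reads per library, but 84.2% of values under 1 CPM were within 0.05 of a whole multiple of it, too few for a count test. The depth of the other table is unknown. limma 3.58.1 in R 4.3.3 (mean-variance trend) was run on log2(CPM + 1) with all groups of a table in 1 model, and it was tested on simulated data. Cxcl13 in uninjected hearts, under the filter, was tested by exact permutation. The text names all members and receptors, up to 3 called genes of largest change in each other list, and up to 3 genes of most similar pattern for each member. Members, lists and rules were chosen with earlier results of these data known. Alternatives were a pseudocount of 0.1 CPM, no filter, only the groups compared, median-ratio rescaling, array weights, each library left out and a replicate block. Rescaled calls of the other lists were added after the data were seen. Promoter sequences came from RefSeq (GRCm38.p6).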

Additional observations from a re-analysis of the deposited data

Results flagged for a closer look

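A single library far from the rest of its group was looked for in each member and each group of 4 libraries. These were 50 sets, and such a library was found in 1. Chance flags about 1 in 20 independent sets, but these sets reuse the same libraries, so the count cannot be read against that rate. Smaller groups were not searched, among them Luc hearts at 24 h, where heart A had 675 CPM of Cxcl1 against 86.6 and 83.0 CPM. Cxcl10 was 7.66 CPM in Luc heart 3 at 48 h, while the other 3 Luc hearts lay between 0.968 and 1.13 CPM.

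The change from sham differed between time points for several members. These are the contrasts between times already reported above and not a further test. In uninjected hearts the effect at 24 h minus that at 4 h was 2.60 on the log2 scale for Cxcl2, 5.05 for Cxcl3, 3.07 for Cxcl5, 2.196 for Cxcl10, 0.63 for Cxcl16 and -0.99 for Cxcl12. In Luc hearts the same difference was 2.17 for Cxcl2, 1.89 for Cxcl3, 2.94 for Cxcl5, 3.49 for Cxcl9, 2.65 for Cxcl13, 1.14 for Cxcl14 and -1.03 for Cxcl12. From 24 h to 48 h in Luc hearts it was -3.71 for Cxcl1, -2.53 for Cxcl2, -4.84 for Cxcl9, -5.21 for Cxcl10, -1.67 for Cxcl13 and -1.58 for Cxcl14. Some of these calls were lost when a single heart was left out, as given above. They were Cxcl12 in uninjected hearts and Cxcl2, Cxcl3, Cxcl12 and Cxcl14 in Luc hearts at 24 h against 4 h. From 24 h to 48 h they were Cxcl2 and Cxcl13. The difference of the AC effect between times was called for 0 members by limma, and 1, 1 and 3 members passed at an unadjusted p under 0.05.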

How the results depend on the processing

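Over 1312 alternative values of 107 member results, 1200 kept their direction and side of the threshold, 27 lost a call, 38 gained one, and 47 changed sign, 0 of them for a change called as reported and 0 past the threshold. The cause was not tested. The number of members called moved for Luc against sham at 4 h (1 as reported), to 3 with a pseudocount of 0.1 CPM, 7 with only the groups compared in the model and 3 with the replicate block; for Luc against sham at 48 h (3), to 5 with the pseudocount; for AC against Luc at 48 h (1), to 2 with the pseudocount or with rescaling; and for the AC effect at 48 h minus 4 h (0), to 1 with only the groups compared or with array weights. With 1 library left out it ranged from 4 to 7 for Luc at 24 h against 4 h, 1 to 4 for AC against Luc at 48 h, and 0 to 1 for the AC effect at 48 h minus 4 h and minus 24 h. Shares of all genes under the same settings are not given beside these counts, which are therefore not read against a background.

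Signs changed as follows (log2). With array weights, MI 24 h against sham gave -0.051 for Cxcl14, Luc 24 h against 4 h -0.023 for Cxcl16, AC against Luc at 4 h 0.44 for Cxcl9 and 0.078 for Cxcl14, and at 24 h 0.052 for Cxcl1, 0.027 for Cxcl2, -0.00584 for Cxcl12 and 0.093 for Cxcl16. With rescaling, Luc 24 h against 4 h gave -0.066 for Cxcl16, and AC against Luc 0.00466 for Cxcl9 at 4 h, 0.00607 for Cxcl16 at 24 h and -0.092 for Cxcl5 at 48 h. With 1 library left out, Cxcl9 ranged from -0.077 to 0.43 at MI 4 h and from -0.39 to 0.13 at Luc 48 h against sham, Cxcl16 from -0.38 to 0.46 for Luc 24 h against 4 h and from -0.74 to 0.10 for 48 h against 24 h, and Cxcl3 from -0.40 to 1.42 for 48 h against 24 h. For AC against Luc at 4 h the ranges were -0.054 to 0.28 for Cxcl1, -0.083 to 0.49 for Cxcl3, -0.26 to 0.51 for Cxcl9 and -0.41 to 0.0202 for Cxcl14. At 24 h they were -2.09 to 0.24 for Cxcl1, -1.68 to 0.36 for Cxcl2, -0.44 to 1.38 for Cxcl3, -1.36 to 0.80 for Cxcl5, -0.21 to 0.70 for Cxcl12, -0.34 to 0.82 for Cxcl13, -0.20 to 0.51 for Cxcl14 and -0.40 to 0.44 for Cxcl16, and at 48 h -0.13 to 0.29 for Cxcl5.

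Libraries with the same replicate number or letter had correlations of deviations from group means between -0.0567 and 0.345 in uninjected hearts. In the injected table these were between -0.206 and 0.433. The 2 highest, 0.433 and 0.334, were those of AC hearts at 4 h with the 2 sham hearts, whose deviations mirror each other. Libraries with different labels were not compared in this way, so the check cannot decide whether the labels pair the libraries. With the number or letter as a replicate block, Cxcl5 lost its call at MI 4 h (q = 0.0952), leaving 2 members called, Cxcl14 at MI 24 h was -0.016 and Cxcl5 in AC against Luc at 48 h was -0.00774.

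Calls over all genes moved by over 1.5 times for MI 4 h against sham (296 as reported; 705 with only the groups compared, 2500 with array weights, 117 with the block), Luc against sham at 4 h (194; 596 with only the groups compared) and 48 h (3774; 1494 with only the groups compared, 2227 with array weights), Luc 24 h against 4 h (4058; 6147 with array weights), and AC against Luc at 48 h (1926; 1208 with only the groups compared, 3178 with array weights, 479 with the block). For the AC effect at 48 h minus 4 h they were 421, with 235 under the pseudocount and 1621 with array weights, and at 48 h minus 24 h 322, with 205, 495, 56 and 991 under the pseudocount, no filter, only the groups compared and array weights. AC against Luc at 4 h and 24 h gave 1 call each and between 0 and 6 under the alternatives.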

Other observations

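In uninjected hearts the estimated read numbers of Cxcl2 and Cxcl3 at 4 h were not whole, at 163.6 and 15.4 in heart C and 180.7 and 39.3 in heart D, while Cxcl1 had 848 and 758 reads and Cxcl5 had 61.0 and 268 reads in the same hearts. Cxcl16 also had fractional reads, 223.1 and 165.3. These are 3 of the members that share stretches of 50 bases with another gene, and the cause was not tested.

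Ppbp and Pf4, the CXC ligands of platelets, had log2 differences of 0.21 and 0.08 from sham in Luc hearts at 24 h, where neither was called, and were higher at 48 h by 1.401 and 1.29. The platelet markers summed to at most 3.65 CPM in every group of that table. In AC hearts at 48 h the proteoglycan Sdc1 was higher than in Luc hearts (log2 difference 0.74), and Cxcr4 was 12.7 to 19.9 CPM against 7.33 to 12.0 CPM, groups that did not overlap and a difference of 0.66 that did not pass (q = 0.0759).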
